A study of Cavia porcellus with 34 samples.

Results

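Cerebellins, neurexins and neuroligins are trans-synaptic organiser proteins, and 8 of their genes, CBLN1, CBLN2, CBLN4, NRXN2, NRXN3, NLGN1, NLGN2 and NLGN3, were followed by gene symbol in RNA-seq of the paraventricular nucleus (PVN) of the hypothalamus of guinea pigs (Cavia porcellus). All 8 were present in each of the 3 deposited tables, among 12114 genes in F1, 12207 in F2 and 12068 in F3, and all 8 passed the filter on low values in every generation. The genes were selected on family membership with the fold changes between treatment groups in these animals already known. Their fold changes and calls are therefore a description and not independent evidence. The 3 other family symbols looked for, CBLN3, NLGN4X and NLGN4, were in none of the tables and were not analysed here.

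The animals were juvenile females of the paternal line at postnatal day 40. Pregnant F0 guinea pigs received the synthetic glucocorticoid betamethasone (sGC, labelled Beta) or saline vehicle (Veh, labelled Control). F1 offspring were exposed in utero, and F2 and F3 descended from them through the male line with no further treatment. Each treatment group held 5 animals in both F1 and F2 and 6 animals in F3. Of the F3 sGC animals, 2 belonged to a second sequencing batch. Tissue was a punch of the anteromedial hypothalamus that held the whole PVN, so neighbouring nuclei could be part of it. In such bulk tissue, fewer cells of a type and less RNA per cell cannot be told apart.

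Cerebellins are secreted proteins of the C1q family that stand in the synaptic cleft. They bind neurexins on the presynaptic membrane. CBLN1 and CBLN2 also bind delta glutamate receptors such as GRID1 on the postsynaptic membrane, and so hold both sides of the synapse together. Neurexins also bind neuroligins, postsynaptic adhesion proteins that recruit the scaffolds of excitatory or inhibitory synapses. The PVN holds the neurosecretory neurons that make vasopressin, oxytocin, corticotropin-releasing hormone and thyrotropin-releasing hormone, and many GABAergic neurons lie around it.

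Values are the authors' normalised counts, divided here by a size factor for each sample ("scaled"). In units of 1000000 counts, the deposited total of an animal was 15.57 to 21.94 in F1, 15.65 to 19.44 in F2 and 18.69 to 18.98 in F3. The tables hold normalised values and not the reads behind them, so no counting interval was formed. Marker levels were read from 8 genes listed for the PVN, AVP, OXT, CRH, TRH, SIM1, OTP, SST and CALB2. All 8 were present in each table, which alone does not show how much of the PVN a punch held. In F1 the log2 fold changes of all 8 were below 0, with a median of -0.88, but only TRH passed the test (3171 ± 174 in Veh and 1778 ± 1014 in sGC, mean ± SD, n = 5 each, limma adjusted p = 0.0398). Their summed level was 117048 to 231822 in F1 Veh and 26667 to 185506 in F1 sGC. Fits with the mean level of these markers as a covariate are given with the GABAergic genes, after the main results.

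In F1, 3 of the 8 genes passed the threshold. CBLN4 was lower in sGC, at 0.561 of the Veh level. NRXN3 was 2.17-fold higher and NRXN2 was 1.15-fold higher. CBLN1, CBLN2 and the 3 neuroligins did not pass. A gene was called when its limma p-value, adjusted over all genes of the table, was under 0.05. By this rule 17.3% of all 11870 genes tested in F1 were called, 8.48% higher and 8.86% lower in sGC. Where the deposited values were not scaled, 78 genes were called in F1, 92.3% of them higher in sGC against 48.9% in the scaled fit. In F2 and F3 none of the 8 genes passed. The share of all genes called was 0% in F2 (0 of 11959, with 1534 at an unadjusted p under 0.05) and 0.0422% in F3 (5 of 11862, with 1562 at an unadjusted p under 0.05). The paper's own count-based test of these animals gave other totals. It reported fewer called genes than here in F1, most of them higher in sGC, and more in F2 and F3.

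CBLN4 encodes the cerebellin that also binds the netrin receptors DCC and neogenin. In the F1 Veh animals its scaled normalised count was 1315, 1546, 1378, 1669 and 1161. In the F1 sGC animals it was 731, 709, 830, 813 and 857. Every sGC animal was below every Veh animal, and the sGC values lay closer together. The means were 1414 ± 198 in Veh and 788 ± 64.5 in sGC (SD, n = 5 each), a log2 fold change of -0.83 (SE 0.095, 95% interval -1.04 to -0.63, limma adjusted p = 0.000918). CBLN4 ranked 32 of 11870 genes by p-value, and 115 genes had a log2 fold change at least as large in size. The 2 groups did not overlap for 14.2% of all genes tested in F1.

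No such difference in CBLN4 was found in F2. The F2 Veh animals had 842, 983, 1195, 1539 and 826, and the F2 sGC animals had 1089, 1152, 1081, 1328 and 1311. The sGC animals all lay within the range of the Veh animals. The F2 log2 fold change was 0.18 (SE 0.16, 95% interval -0.16 to 0.53, limma adjusted p = 0.714). This interval excluded a fall of the F1 size. In F3 the Veh animals had 866 at the lowest, a median of 1220 and 1346 at the highest, and the sGC animals had 689, 1105 and 1182. The groups overlapped, and the log2 fold change was -0.16 (SE 0.13, 95% interval -0.44 to 0.12, limma adjusted p = 0.643). The groups did not overlap for 3.21% of all genes in F2 and 1.26% in F3, and for none of the 8 genes in either generation.

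CBLN1 is best known from the synapses of cerebellar granule cells on Purkinje cells. In F1 it was at 1222, 1349, 1319, 1116 and 1560 in Veh and at 1281, 1311, 1050, 1205 and 1111 in sGC. These ranges overlapped, and the log2 fold change was -0.14 (SE 0.090, limma adjusted p = 0.324). In F2 it was at 1303, 1353, 1382, 1397 and 1435 in Veh and at 1367, 1267, 1278, 1145 and 1002 in sGC. Of the sGC animals, 4 lay below every Veh animal, and the fifth lay within the Veh range. The F2 log2 fold change of -0.19 (SE 0.076) had an unadjusted limma p of 0.03 but an adjusted p of 0.337. An unadjusted p under 0.05 was found for 1534 of all 11959 genes tested in F2. In F3, CBLN1 had a lowest, median and highest value of 1278, 1375 and 1474 in Veh and 1324, 1432 and 1781 in sGC. The F3 log2 fold change was 0.10 (SE 0.061, limma adjusted p = 0.534).

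CBLN2, a close relative of CBLN1 that binds the same receptors, was the cerebellin with the widest spread between Veh animals in F1 and F2. In F1 it was at 1969, 1812, 2009, 3430 and 1660 in Veh and at 1870, 2099, 1587, 1556 and 1598 in sGC. Veh animal SGM15 stood at 3430, apart from all others, and the log2 fold change of -0.28 (SE 0.17, limma adjusted p = 0.292) was within this spread. It was -0.10 without SGM15 and 0.00638 with the level of 7 GABAergic genes as a covariate, and was called in neither fit. In F2 the Veh animals had 943, 1991, 1667, 2984 and 1473, a range that enclosed the sGC values of 1544, 1525, 1533, 1436 and 1892. The F2 log2 fold change was -0.10 (SE 0.24, 95% interval -0.62 to 0.43, limma adjusted p = 0.926). In F3 the lowest, median and highest values were 1079, 1447 and 1684 in Veh and 1069, 1593 and 1757 in sGC. The F3 difference of 0.11 on the log2 scale (SE 0.12, limma adjusted p = 0.729) did not pass either.

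**Figure D1:**
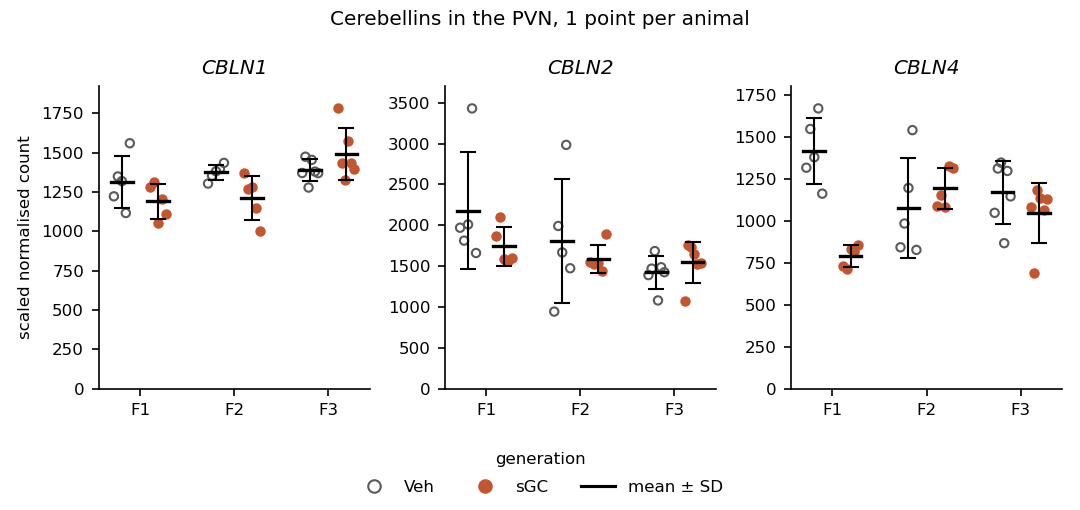
Scaled normalised counts (vertical axes, each from 0) of CBLN1, CBLN2 and CBLN4 by generation (horizontal axes). Each point is 1 animal, open for Veh and filled for sGC, and black bars are the mean and SD of 5 or 6 animals. The 5 F1 sGC animals sit between 709 and 857 for CBLN4, all under the lowest F1 Veh animal at 1161, while the F2 and F3 groups overlap for all 3 genes.

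NRXN3 encodes one of the presynaptic receptors that cerebellins and neuroligins share. Gene counts do not separate its long and short forms or its splice inserts. In F1 it was at 451, 404, 397, 252 and 465 in Veh and at 807, 886, 1062, 843 and 642 in sGC. The lowest sGC animal was above the highest Veh animal. The means were 394 ± 84.6 in Veh and 848 ± 151 in sGC (SD, n = 5 each), a log2 fold change of 1.12 (SE 0.17, 95% interval 0.740 to 1.496, limma adjusted p = 0.00289). It ranked 176 by p-value, and only 35 of all genes tested had a fold change at least as large in size.

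In F2, NRXN3 was at 467, 431, 415, 444 and 892 in Veh and at 848, 676, 464, 428 and 464 in sGC. A single Veh animal, SGM29, and 2 sGC animals, SGM21 and SGM26, had high values, and the other animals of both groups lay between 415 and 467. The F2 log2 fold change was 0.14 (SE 0.24, limma adjusted p = 0.889). In F3 the lowest, median and highest values were 597, 788 and 933 in Veh and 533, 768 and 839 in sGC. These groups overlapped over most of their range, with a log2 fold change of -0.10 (SE 0.12, limma adjusted p = 0.768). The F3 animals of both groups were thus spread around a level that in F1 was found in the sGC group, but the tables were normalised separately and the levels were not tested against each other.

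NRXN2 encodes a second neurexin. In F1 it was at 7004, 6680, 6799, 6661 and 6852 in Veh and at 7579, 8192, 8473, 7565 and 7300 in sGC. The groups did not overlap, and the Veh animals lay within a narrow range. The means were 6799 ± 140 in Veh and 7822 ± 490 in sGC (SD, n = 5 each), a log2 fold change of 0.20 (SE 0.044, limma adjusted p = 0.0133). Of the 3 called genes it was the closest to the threshold, and NLGN2, with an adjusted p of 0.113, was the closest of those not called. The call of NRXN2 was lost where the deposited values were not scaled (log2 fold change 0.26, limma adjusted p = 0.364). In F2, NRXN2 was at 7018, 7655, 7657, 7884 and 8222 in Veh and at 8826, 7439, 7831, 7548 and 7206 in sGC. These values overlapped, with a log2 fold change of 0.01 (SE 0.063, limma adjusted p = 0.963). In F3 the lowest, median and highest values were 8241, 8503 and 8659 in Veh and 8007, 8192 and 8591 in sGC, a log2 fold change of -0.04 (SE 0.022, limma adjusted p = 0.496).

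The 3 neuroligins had log2 fold changes between 0.08 and 0.13 in F1, and none was called. NLGN1, which is found mainly at excitatory synapses, was at 1074, 1160, 1161, 1202 and 1233 in Veh and at 1192, 1379, 1303, 1221 and 1258 in sGC. All 5 sGC animals were above the Veh mean, but the groups overlapped (log2 fold change 0.12, SE 0.051, limma adjusted p = 0.12). NLGN2, which is found at inhibitory synapses, was at 5338, 5259, 5054, 4807 and 4850 in Veh and at 5259, 5670, 5911, 5861 and 5027 in sGC. Of the sGC animals, 4 were above the Veh mean, and the log2 fold change was 0.13 (SE 0.053, limma adjusted p = 0.113). NLGN3, found at both kinds of synapse, was at 2335 ± 80.0 in Veh and 2478 ± 147 in sGC (SD, n = 5 each), a log2 fold change of 0.08 (SE 0.045, limma adjusted p = 0.221). The 95% intervals of the log2 fold change were 0.01 to 0.24 for NLGN1, 0.01 to 0.25 for NLGN2 and -0.02 to 0.18 for NLGN3.

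In F2 and F3 the neuroligin groups overlapped throughout. The F2 log2 fold changes were 0.04 for NLGN1, 0.02 for NLGN2 and -0.02 for NLGN3, with limma adjusted p-values of 0.894, 0.949 and 0.928. The F3 log2 fold changes were 0.02, -0.02 and 0.01 in the same order, with limma adjusted p-values of 0.846, 0.82 and 0.86. The widest of the 3 intervals in F3, that of NLGN1, ran from -0.05 to 0.09. Within the first sequencing batch alone (6 Veh and 4 sGC animals), no F3 log2 fold change of the 8 genes changed sign except that of NLGN2 (0.01), and those of CBLN4 and NRXN3 were -0.21 and -0.15 (limma adjusted p-values of 0.713 and 0.775).

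**Figure D2:**
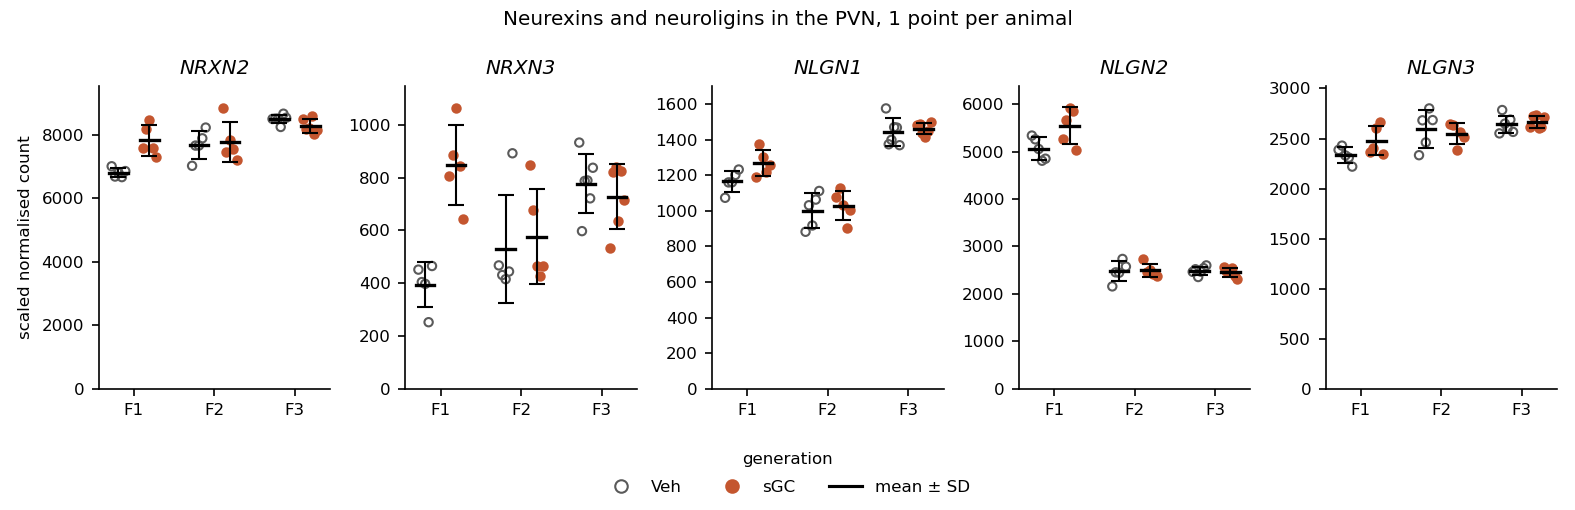
Scaled normalised counts (vertical axes, each from 0) of the 2 neurexins and 3 neuroligins by generation (horizontal axes). Each point is 1 animal, open for Veh and filled for sGC, and black bars are the mean and SD of 5 or 6 animals. In F1 the NRXN3 animals sit between 252 and 465 in Veh and between 642 and 1062 in sGC, and NLGN2 has means of 5062 and 5545 in F1 against 2454 to 2500 in F2 and F3.

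Across the 8 genes, the median log2 fold change was 0.10 in F1, 0.02 in F2 and -0.00343 in F3, and the median over all genes tested was 0.00321, -0.00203 and -0.000206. The median size of the log2 fold change, without its sign, was 0.168 for the 8 genes and 0.128 for all genes in F1. These medians were 0.0696 and 0.0721 in F2 and 0.067 and 0.0448 in F3. An unadjusted p under 0.05 was found for 5 of the 8 genes in F1, where 33% of all genes had one (3912 of 11870). In F2 it was found for 1 of the 8 (CBLN1) and for 1534 of all 11959 genes. In F3 it was found for 0 of the 8 and for 1562 of all 11862 genes.

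**Figure D3:**
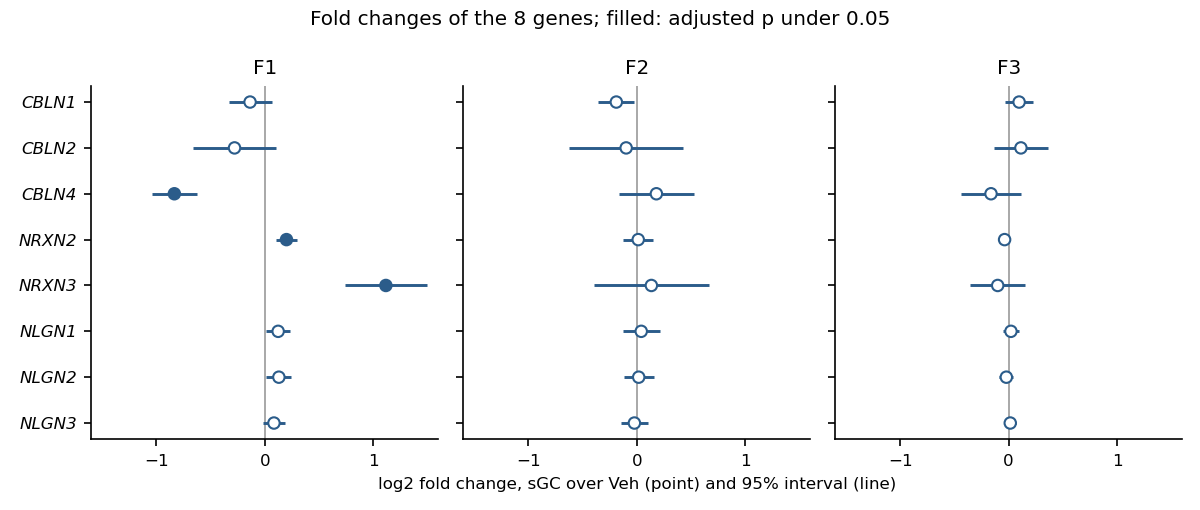
Log2 fold change of sGC over Veh (points, horizontal axes) with its 95% interval (lines) for the 8 genes in F1, F2 and F3. Filled points passed an adjusted p of 0.05. CBLN4 at -0.83, NRXN2 at 0.20 and NRXN3 at 1.12 are filled in F1, and no point is filled in F2 or F3.

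Veh levels were set side by side across generations as scaled values per 1000000 counts of an animal, although each table was normalised on its own and no test was made. NLGN2 was at 275 ± 13.1 in F1 Veh, 137 ± 8.81 in F2 Veh and 132 ± 4.53 in F3 Veh (SD, n = 5, 5 and 6). The F1 animals lay above all F2 and F3 animals, by 1.01 and 1.05 on the log2 scale, and only 5.56% and 4.91% of 11425 genes lay as far apart between these tables. NRXN3 went the other way, at 21.4 ± 4.61 in F1 Veh, 29.3 ± 11.2 in F2 Veh and 41.4 ± 6.16 in F3 Veh. The F1 and F3 ranges of NRXN3 did not overlap, while the F2 range overlapped both. CBLN1 was nearly level, at 71.3 ± 9.25, 76.0 ± 2.21 and 73.8 ± 3.77. CBLN4 was at 76.8 ± 10.7, 59.6 ± 15.4 and 62.1 ± 9.73, and CBLN2 at 118 ± 38.3, 100.2 ± 39.4 and 75.6 ± 10.2, with overlapping ranges in neighbouring generations. Marker levels of the punches also differed. The PVN markers summed to 117048 to 231822 scaled counts in F1 Veh, 61469 to 121637 in F2 Veh and 21128 to 59731 in F3 Veh. For 7 GABAergic genes the sums were 10990 to 22440, 14650 to 27860 and 20280 to 27590. Whether the levels of the 8 genes differ for this reason was not tested.

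The partners of these proteins were described from 4 lists of genes, which were also drawn up with earlier results of these data known. In F1, 18 of the 57 listed genes that were tested passed, 16 higher and 2 lower in sGC, with a median log2 fold change of 0.136. Of all genes tested in F1, 17.3% passed, 8.48% higher and 8.86% lower, with a median of 0.00321. In F2 and F3, 0 of 56 passed by limma, with 2 and 11 at an unadjusted p under 0.05. Over all genes, 1534 of 11959 in F2 and 1562 of 11862 in F3 had such a p. Among other binding partners of cerebellins and neurexins, 4 of 17 passed in F1 and all 4 were higher. NEO1, which encodes neogenin, was higher by 0.24 on the log2 scale (2605 ± 99.2 in Veh and 3074 ± 197 in sGC, SD, n = 5 each, limma adjusted p = 0.00909). DCC, the related netrin receptor, was higher by 0.43 (365 ± 57.1 and 490.3 ± 60.9, limma adjusted p = 0.0277). GRID1, a postsynaptic delta receptor for CBLN1 and CBLN2, was higher by 0.18 (1548 ± 52.9 and 1764 ± 148, limma adjusted p = 0.0461). CASK, a scaffold inside the presynaptic terminal that binds the tail of neurexins, was higher by 0.17 (limma adjusted p = 0.0154). NEO1, DCC, GRID1 and CASK all lost their calls with unscaled values and with PVN markers as a covariate. DCC and GRID1 also lost theirs with GABAergic genes as a covariate.

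Of the scaffolds and regulators of neuroligins, 1 of 12 passed in F1, where 17.3% of all genes did. SHANK1, a scaffold of excitatory synapses, was higher by 0.64 on the log2 scale (3474 ± 474 in Veh and 5423 ± 716 in sGC, SD, n = 5 each, limma adjusted p = 0.00336). The C1q-like proteins, secreted relatives of the cerebellins, went in both directions, with 4 of 7 genes of that list passing. C1QL3 was lower by 0.46 on the log2 scale (1217 ± 199 in Veh and 880.4 ± 69.6 in sGC, SD, n = 5 each, limma adjusted p = 0.0126). C1QL4 was also lower (-0.58 on the log2 scale, limma adjusted p = 0.0395), and C1QL2 was higher (0.61, limma adjusted p = 0.0279). ADGRB1, an adhesion receptor of the family that binds C1q-like proteins, was higher by 0.22 (limma adjusted p = 0.0453).

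Of 21 other synapse organisers tested in F1, 9 passed, all of them higher in sGC, beside 8.48% of all genes called higher. LRRC4, a postsynaptic leucine-rich repeat protein, was higher by 0.29 on the log2 scale (limma adjusted p = 0.00377). The latrophilin ADGRL1 was higher by 0.29 (limma adjusted p = 0.00436), and its ligands of the teneurin family TENM4 and TENM2 by 0.40 and 0.53 (limma adjusted p-values of 0.005 and 0.00515). All 18 called genes of the 4 lists had the same direction where the deposited values were not scaled, but only SHANK1 and TENM2 were then called. With the mean level of the 8 PVN markers as a covariate, 4 of the 18 were still called (ADGRL1, LRRC4, SHANK1 and TENM4). With that of 7 GABAergic genes as a covariate, 9 were, NEO1 and CASK among them but not DCC or GRID1. These covariates were chosen after the data were seen.

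**Figure D4:**
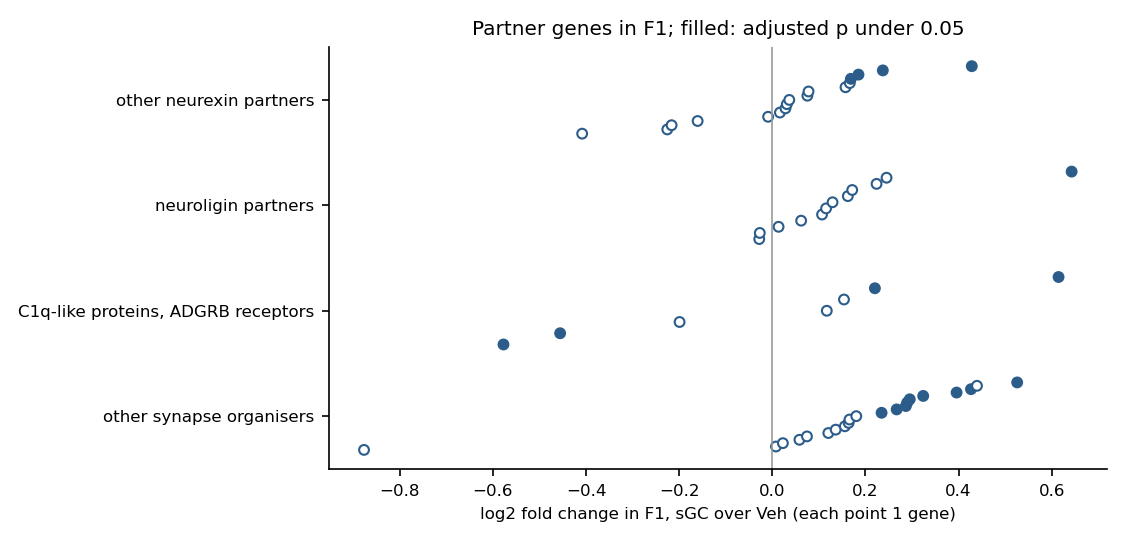
Log2 fold change of sGC over Veh in F1 (horizontal axis) for the 57 partner genes tested, each point 1 gene, in 4 rows by list. Filled points passed an adjusted p of 0.05. There are 18 filled points, of which 16 lie to the right of 0 and the other 2, C1QL3 at -0.46 and C1QL4 at -0.58, in the row of C1q-like proteins.

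Some genes followed the 8 genes from animal to animal. Likeness was measured as Pearson's r of log2 scaled values, centred within each treatment group and generation, over 32 animals and 10539 genes, and is a description, since values of one animal share a punch, a library and a normalisation. CBLN4 was most like ZNF804A (r = 0.81), KIAA0319 (r = 0.793) and TMEM37 (r = 0.777), of which TMEM37 followed it in F2 (r = 0.884) and F3 (r = 0.926) but not in F1 (r = -0.0285). CBLN2 was most like CIT (r = 0.892), RGS7BP (r = 0.886) and ADGRA1 (r = 0.881). CBLN1 was most like PTPRE (r = 0.756), DTNB (r = 0.744) and HS3ST4 (r = 0.737). The 99th percentile of r over all genes compared was 0.535 for CBLN1, 0.784 for CBLN2 and 0.614 for CBLN4. It was 0.723 for NRXN2, 0.689 for NLGN2 and 0.691 for NLGN3. Among the 8 genes themselves, the highest values were those of NRXN2 with NLGN2 (r = 0.75) and NLGN2 with NLGN3 (r = 0.658), and the lowest was that of CBLN4 with NRXN3 (r = -0.481).

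The genes most like NRXN3 were looked up after its values were seen. They were GAD1 (r = 0.946) and GAD2 (r = 0.929), which encode the enzymes that make GABA, and DLX6 (r = 0.937), a transcription factor of forebrain GABAergic neurons. The r of NRXN3 with the mean log2 level of 7 GABAergic genes, GAD1, GAD2, SLC32A1, DLX1, DLX2, DLX5 and DLX6, was 0.977 in F1, 0.939 in F2 and 0.936 in F3. Of these, GAD1, GAD2 and DLX6 had been picked for their likeness to NRXN3 in these same animals. A high r was thus built in by selection and is no separate evidence. The fit of NRXN3 with these genes as a covariate shares that limit. In F1, all 7 GABAergic genes had a log2 fold change above 0, with a median of 0.426, and only DLX6 was called (0.58, SE 0.18, limma adjusted p = 0.045). Their summed level was 10990 to 22440 in F1 Veh and 18130 to 31820 in F1 sGC. With the mean level of these genes as a covariate, the F1 log2 fold change of NRXN3 was 0.76 (SE 0.063, limma adjusted p = 0.000643) against 1.12 without it, and it was 1.15 (SE 0.25, limma adjusted p = 0.0312) with the mean level of the 8 PVN markers as a covariate. The F1 log2 fold change of CBLN4 was -0.72 (SE 0.099, limma adjusted p = 0.00455) with the GABAergic genes and -0.69 (SE 0.12, limma adjusted p = 0.0165) with the PVN markers as the covariate. Both genes were thus still called beside either covariate. NRXN2 was not (0.15 with the GABAergic genes, limma adjusted p = 0.0579, and 0.22 with the PVN markers, limma adjusted p = 0.0733, on the log2 scale). These fits were chosen after the data were seen.

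**Figure D5:**
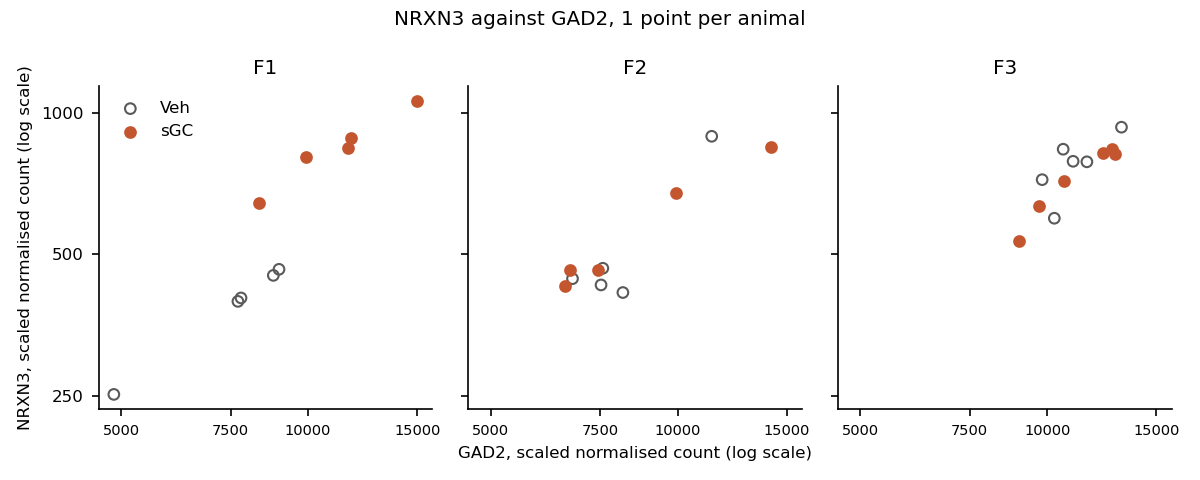
Scaled normalised count of NRXN3 (vertical axes, log scale) against that of GAD2 (horizontal axes, log scale), each point 1 animal, open for Veh and filled for sGC. The genes move together in all 3 generations, and in F1 the 5 sGC animals lie above the 5 Veh animals, at 642 to 1062 against 252 to 465 for NRXN3. GAD2 was picked for its likeness to NRXN3 in these animals.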

How the data were processed

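Libraries enriched for mRNA from the total RNA of PVN punches were sequenced in 32 animals. Per the paper's methods, the authors aligned reads to the cavPor3 build, counted them on genes, corrected the F3 batches and removed unwanted variation with RUVSeq residuals. What was deposited is the normalised count, rounded, which was handled as a score rather than as reads. Each table also holds 6 columns of the authors' comparisons (dispersion, fold change, mean level, test statistic and p-values), which were not used. No column of per-sample values was left unmapped.

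The test was limma (version 3.58.1, R 4.3.3), run separately for each generation, with a mean-variance trend in eBayes, on log2(value / size factor + 1). Size factors were medians of ratios, genes had a mean scaled value of at least 10, p-values were two-sided with Benjamini-Hochberg adjustment over all genes tested, and the threshold was 0.05. A count test could not be used on these values. Fold changes are on the log2(value + 1) scale. The fit was tested on simulated data. The labels name no litter, sire or F0 founder, and the study's methods count independent litters as the sample size in general. The authors' normalisation removed part of the spread between animals within groups (1 direction of variation in F1, 1 in F2 and 2 in F3). SEs, 95% intervals and p-values rest on the spread that was left, which can be smaller than that between the animals themselves. The p-values set the group difference against this remaining spread. They treat the animals as independent, which could not be checked.

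The 8 genes, the partner and marker lists and the tests were chosen with earlier results of these data known. Named beyond the 8 genes were the called genes of each partner list, at most 4 per list with the smallest adjusted p, the 3 genes most like each cerebellin among those with a mean of at least 50 in all tables, and the PVN peptides. Some factors of neighbouring nuclei were named as well, to show their opposite directions. NRXN3's 3 nearest genes and the GABAergic list were added after its values were seen, and 2 genes of that list (DLX1 and DLX5) are also in the list of neighbouring nuclei. Some genes of the lists are not reported here. For 2 F3 animals a repeat sequencing run was not used here. No genome of the authors' build was used, so no positions, lengths or sequences are given, and levels of different genes were not compared. Alternatives were no scaling, scaling to totals, a pseudocount of 5, other filters, the removed directions or batch as covariates, no trend, a block on the numbers in the column headers, and leaving out each animal.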

Additional observations from a re-analysis of the deposited data

Results flagged for a closer look

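In 6 of the 48 groups examined (8 genes, 2 treatments, 3 generations), 1 animal stood apart from the others of its group by Dixon's criterion, where chance gives about 2.4. Values are log2(scaled normalised count + 1). CBLN2 was at 11.74 in F1 Veh animal SGM15 and at 10.7 to 10.97 in the other 4. The same animal had the lowest NRXN3 value, 7.982 against 8.637 to 8.864. CBLN2 was at 10.89 in F2 sGC animal SGM25 against 10.49 to 10.59, and at 10.06 in F3 sGC animal SGM10 against 10.57 to 10.78. CBLN4 was at 9.431 in F3 sGC animal SGM18 against 10.06 to 10.21. NRXN3 was at 9.803 in F2 Veh animal SGM29 against 8.7 to 8.871. SGM15 and SGM29 also had the lowest and the highest GAD1 of the Veh animals in their generations, at 3176 and 9132 scaled normalised counts.

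CBLN4 differed in sign between F1, where it was called, and F2, where it was not (log2 fold change 0.18, SE 0.16, limma adjusted p = 0.714). All 5 F1 sGC animals were below the F1 Veh mean and all 5 F2 sGC animals were above the F2 Veh mean, and the log2 fold changes differed by -1.02. The difference between the generations was not tested, because the gene was chosen with these comparisons known.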

How the results depend on the processing

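Of the 512 alternative values of single genes, 506 kept their direction where called, their side of the threshold and, where not called, a value within 1 SD of the main one. The 6 exceptions were all in F1. NRXN2 lost its call with values as deposited (log2 fold change 0.26), with PVN markers as a covariate (0.22) and with GABAergic genes as a covariate (0.15) and under the block described below, and NLGN2 and NLGN3 moved to 0.22 and 0.18, not called, with PVN markers as a covariate. The cause was not tested. CBLN4 and NRXN3 were called in F1 under all 10 other settings and without any 1 of the 10 animals, with log2 fold changes of -0.90 to -0.69 and of 0.76 to 1.21.

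Leaving out each animal in turn gave 3 called genes of the 8 in F1 each time, and 0 in F2 and F3. The count of all genes called in F1, 2058, was 78 with values as deposited (92.3% of them higher in sGC, against 48.9%), 1345 with the removed directions as covariates, 528 with PVN markers as a covariate (61.9% higher), and 904, without Veh animal SGM11, to 2021 without 1 animal. In F2 it was 1 with the GABAergic genes as a covariate and 0 to 2 without 1 animal (2 without Veh animal SGM23 or SGM28). In F3, against 5, it was 1 with the removed directions and with the GABAergic genes as a covariate, 11 without the trend, 28 with PVN markers as a covariate, 3 with batch as a covariate, 0 in the first batch alone, and 1 to 17 without 1 animal (17 without sGC animal SGM18 and 16 without Veh animal SGM14). Values as deposited shifted the F1 median over the whole table from 0.00321 to 0.0657 on the log2 scale. The PVN and GABAergic covariates were chosen after the data were seen.

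The sample labels give the groups no shared numbers, but the column headers number the animals of each group from 1. Whether these numbers mark pairs is not stated. Animals with the same number had correlated deviations (r over 0.1) in 1 of 5 pairs in F1, 1 of 5 in F2 and 2 of 6 in F3. Of the animals, 2 of 10, 2 of 10 and 1 of 12 were most like the one with their own number. These r values gave no clear sign of pairs. They cannot exclude pairing, since the pairs are few and the values were residual-normalised and centred within each group. With these numbers as a replicate block, a fit also added after the data were seen, 771 genes were called in F1 (56.5% higher), 0 in F2 and 0 in F3. CBLN4 and NRXN3 were still called in F1 under the block (limma adjusted p = 0.024 and 0.0274), and NRXN2 was not (log2 fold change 0.20, limma adjusted p = 0.0586). The values are not raw reads, so precision rests on 5 or 6 animals a group, and small changes could have been missed. The 95% intervals are for single genes and are not adjusted over all genes. An interval can thus exclude 0 for a gene that was not called, as for NLGN1 and NLGN2 in F1.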

Other observations

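Marker lists of other cell types were summed in each animal as scaled normalised counts. Transcription factors of neighbouring nuclei summed to 4462 to 9866 in F1 Veh and 4435 to 5834 in F1 sGC, and 0 of 14 tested genes were called by limma. Their log2 fold changes went both ways, with a median of 0.371. The 3 below 0 were TCF7L2 (-1.47), GBX2 (-2.44) and LHX9 (-1.11), and those above 0 included NKX2-1 (0.81), NR5A1 (1.95) and SIX6 (1.01). The sum therefore does not show that both groups held like tissue. In F1, 1 of 7 neuronal markers was called higher and 1 lower, 1 of 5 microglial markers was called higher, and none of the astrocyte, oligodendrocyte, oligodendrocyte precursor, endothelial, fibroblast or cerebellar granule cell markers tested was called. F1 oligodendrocyte markers summed to 29613 to 52455 in Veh and 33323 to 90876 in sGC.

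In F2 no marker was called, as no gene of the table was. The 7 oligodendrocyte markers nevertheless all had a log2 fold change below 0 (median -0.736), and their summed levels, 128412 to 240363 in Veh and 75854 to 107423 in sGC, did not overlap. All 5 endothelial markers and all 4 oligodendrocyte precursor markers in the F2 table were also below 0 (medians -0.269 and -0.382), while 7 of the 8 PVN markers were above 0 (median of the list 0.335). The F2 values of the 8 synaptic genes were measured in these same punches. In F3 the medians of these marker lists lay between -0.0248 and 0.112 apart from the 2 cerebellar granule cell markers in the table, NEUROD1 and ZIC2, with a median of 0.375, and no marker was called. The 7 GABAergic genes, a separate list, had an F3 median of -0.053, with 1 of them above 0 and none called. Of the 13 factors of neighbouring nuclei tested in F3, 5 were below 0, among them FOXB1 at -1.09 and NKX2-1 at -0.93.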
